A study of Homo sapiens with 18 samples.

Results

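The genes described here are 10 genes of the contractile cytoskeleton, ACTA2, ACTG2, TAGLN, CNN1, CALD1, MYL9, TPM1, TPM2, MYLK and MYH9, chosen by name from the 28277 genes of an RNA-seq count table. All 10 were in the table and all 10 were among the 14938 genes with enough counts to be tested. The libraries came from OVCAR3-KRAB cells, an established ovarian cancer cell line made to express dCas9-KRAB, an uncutting Cas9 joined to the KRAB repressor, which a guide RNA brings to a promoter. Cells carried a control guide (sgCtl) or 1 of 2 guides against the long noncoding RNA XIST (sgXIST7 and sgXIST9, the knockdown or KD clones), and each was kept in normoxia or for 24 h in a chamber with 1% oxygen (hypoxia). All 6 groups thus carry dCas9-KRAB and a guide, and each had 3 replicates, so that 18 libraries were analyzed. Each guide was studied in clonal cells, so that the effect of a guide and a difference between clones cannot be told apart. The labels do not say whether replicates were separate cultures, and p-values measure only the spread between these libraries.

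Smooth muscle cells contract when myosin II filaments pull on actin filaments. MYLK, the myosin light chain kinase, switches the myosin on by phosphorylating its regulatory light chain (MYL9). Tropomyosins (TPM1, TPM2), caldesmon (CALD1), calponin (CNN1) and transgelin (TAGLN, also called SM22 alpha) bind the actin filament and stabilize it or regulate its use by myosin. ACTA2 and ACTG2 are the smooth muscle actins, and MYH9 is the nonmuscle myosin heavy chain found in most cells. Many of these genes are classical targets of serum response factor (SRF) and its coactivators, myocardin in smooth muscle and MRTF-A and MRTF-B in other cells. SRF binds the CArG box, a stretch of 2 C, 6 A or T and 2 G.

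The promoters of ACTA2, ACTG2, MYLK and CNN1 are shown because these 4 genes changed between groups as described below and because a scan found CArG boxes in the first 3 of them and none in the last. Each sequence is the 300 bases of the RefSeq table (GRCh38.p14) from 250 bases before to 50 bases after an annotated start, 5′ to 3′ on the strand of the gene, with CArG boxes in capitals, allowing up to 1 difference. The ACTA2 window lies at chr10:88952724-88953023 on the minus strand, the ACTG2 window at chr2:73892758-73893057 on the plus strand, the MYLK window at chr3:123620499-123620798 on the minus strand, at an internal start near the 3′ end of the gene, and the CNN1 window at chr19:11538601-11538900 on the plus strand.
ACTA2: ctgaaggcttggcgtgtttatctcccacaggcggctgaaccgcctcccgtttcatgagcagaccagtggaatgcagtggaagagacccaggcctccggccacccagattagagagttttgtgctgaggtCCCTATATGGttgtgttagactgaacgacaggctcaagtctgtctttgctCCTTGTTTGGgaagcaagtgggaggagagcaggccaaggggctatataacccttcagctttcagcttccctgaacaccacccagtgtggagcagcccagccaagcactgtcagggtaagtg
ACTG2: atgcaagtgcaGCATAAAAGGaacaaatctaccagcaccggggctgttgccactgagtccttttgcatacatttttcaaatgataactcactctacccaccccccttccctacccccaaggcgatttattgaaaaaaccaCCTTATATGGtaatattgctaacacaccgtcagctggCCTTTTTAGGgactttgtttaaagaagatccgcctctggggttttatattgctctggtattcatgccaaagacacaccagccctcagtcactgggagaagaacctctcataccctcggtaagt
MYLK: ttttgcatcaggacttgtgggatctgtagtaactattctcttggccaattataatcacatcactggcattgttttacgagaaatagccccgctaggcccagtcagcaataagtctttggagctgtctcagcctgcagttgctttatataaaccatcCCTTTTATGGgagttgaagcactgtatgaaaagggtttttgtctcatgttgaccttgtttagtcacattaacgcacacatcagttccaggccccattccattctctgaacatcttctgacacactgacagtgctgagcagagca
CNN1: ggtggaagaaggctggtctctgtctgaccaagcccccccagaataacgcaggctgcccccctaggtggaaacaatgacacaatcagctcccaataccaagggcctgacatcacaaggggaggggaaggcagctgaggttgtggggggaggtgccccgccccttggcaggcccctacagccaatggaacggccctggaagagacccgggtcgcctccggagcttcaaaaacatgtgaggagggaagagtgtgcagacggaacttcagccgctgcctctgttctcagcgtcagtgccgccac
The ACTG2 window held 2 exact CArG boxes, CCTTATATGG from 110 bases before the start and CCTTTTTAGG from 73 bases before it, and 1 stretch with 1 difference. The MYLK window held 1 exact box, CCTTTTATGG, from 94 bases before the start. The ACTA2 window held no exact box and 2 stretches with 1 difference, CCCTATATGG and CCTTGTTTGG, from 121 and 71 bases before the start, and the window at its other annotated start held neither. The CNN1 window held none. Of all 35116 windows in the table, 1.29% held an exact box and 18.9% held one with up to 1 difference. Windows were given for 8 of the 10 genes (13 windows in all), of which 2 held an exact box and 5 held one with up to 1 difference, the other 2 of them at CALD1. The pattern reads the same on both strands. These are matches of letters only, and binding was not measured.

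Total counts ranged from 11794375 to 24906936 per library. XIST, the targeted gene, averaged 479 CPM (counts scaled to the library total and the TMM factor) in sgCtl, 0.161 in sgXIST7 and 45 in sgXIST9 in normoxia, and 171, 0.116 and 23.3 CPM in hypoxia, so that sgXIST9 kept 9.39% and 13.6% of the sgCtl level. In hypoxia, replicate 3 had the highest score of each group on principal component 3 (13.7 against -22.3 and -25.3 in sgCtl, and -21.1 against -40.7 and -50.5 in sgXIST9, with 50.6 against 19.9 and 34.1 in sgXIST7). Several results that rest on these libraries are also given without them. Markers of ovarian carcinoma were only partly seen. EPCAM (160 to 243 CPM in the group means) and KRT18 (140 to 219 CPM) were present, and KRT8 (4.4 to 34.7 CPM) was lowest in sgCtl in both conditions. PAX8 was low (1.51 to 4.55 CPM), and MUC16 had no count in any normoxia library. CDH1 and SOX17 had at most 2 counts in any library, KRT7 at most 3 and KRT19 at most 8. The group means of WT1 and MSLN were at most 0.46 and 0.579 CPM. Of the markers that define smooth muscle cells, MYH11, the smooth muscle myosin heavy chain, had no count outside sgCtl in hypoxia and at most 2 there, and the smooth muscle coactivator MYOCD and the filament protein DES had at most 4 counts in any library. The 8 smooth muscle markers, which include CNN1 and ACTG2, summed to 19.3 to 57.8 CPM, mostly through SMTN (18.2 to 42.5 CPM in the group means). LMOD1 was also seen, at 0.808 to 2.84 CPM in the group means. The 11 ovarian carcinoma markers summed to 297 to 518 CPM, mostly through EPCAM and KRT18. The fibroblast markers summed to 444 to 1300 CPM, mostly through COL3A1 (523 to 1020 CPM in the group means). The sums were 3.12 to 6.99 CPM for striated muscle, 0 to 1.29 CPM for endothelium and 13.9 to 56.1 CPM for leukocytes. The leukocyte sum came mostly from CD68 (16.1 to 46.3 CPM in the group means).

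To compare the levels of the 10 genes with each other, CPM were divided by the exon length in kb. That length takes in all annotated exon bases of a gene, so the order depends on which transcripts were present. In sgCtl in normoxia, TPM2 was highest with 326 ± 35.8 CPM per kb (mean ± SD, n = 3 here and for each group below). MYH9 (97.9 ± 4.16) and MYL9 (88.7 ± 4.71) came next. TAGLN (22.8 ± 6.51) and ACTA2 (20.1 ± 8.24) overlapped between libraries, as did MYLK (2.02 ± 0.225) and ACTG2 (1.40 ± 0.524). CALD1 (10.3 ± 1.56) and TPM1 (4.96 ± 0.48) lay between these pairs. CNN1 was lowest with 0.0524 ± 0.0302 CPM per kb. TPM2, MYH9 and MYL9 thus stood above both smooth muscle actins, while TPM1 stood below ACTA2. In the KD clones in normoxia, the order differed in the place of ACTA2, which ranked 2 in sgXIST7 (167 ± 26.8 CPM per kb, overlapping MYH9 at 140 ± 13.2) and 3 in sgXIST9 (96.4 ± 12.3, overlapping MYH9 and MYL9). In sgCtl in hypoxia, CNN1 (1.62 ± 0.194 CPM per kb) lay above MYLK (0.621 ± 0.377) and ACTG2 (0.381 ± 0.176).

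**Figure D1:**
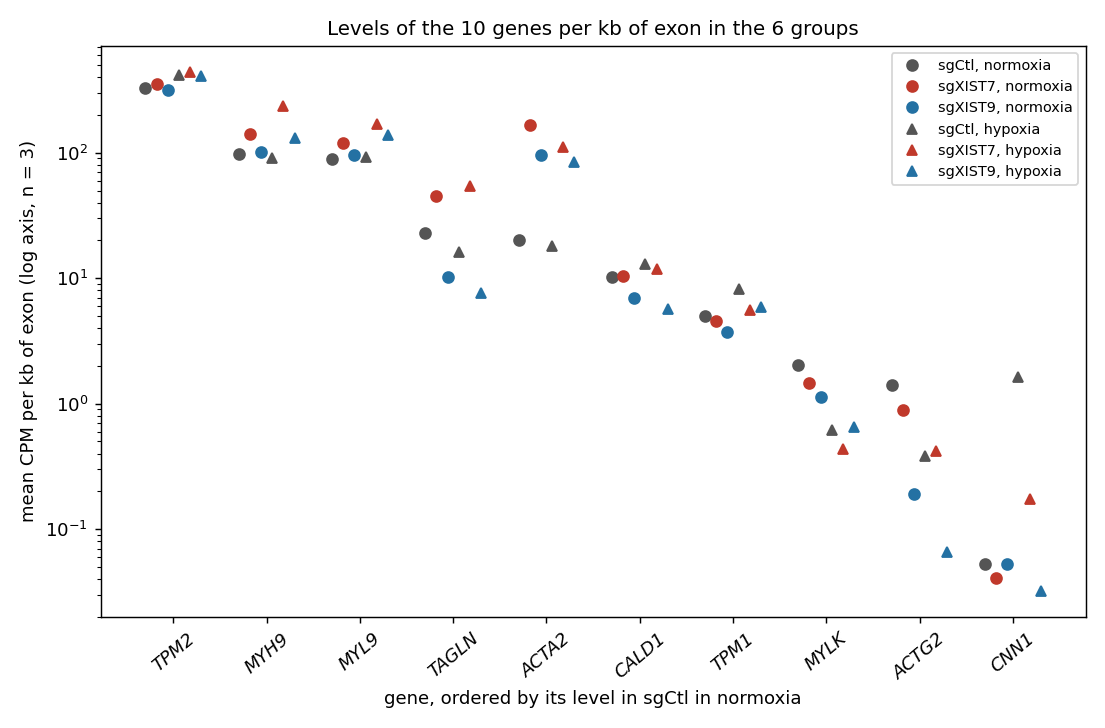
Mean CPM per kb of exon (log axis) of the 10 genes in the 6 groups, 3 libraries each, with circles for normoxia and triangles for hypoxia. TPM2 was the highest gene in each group, and ACTA2 lay at 20.1 in sgCtl, 167 in sgXIST7 and 96.4 in sgXIST9 in normoxia.

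The first comparison asked which of these genes differed between the KD clones and sgCtl in normoxia. A gene was called up-regulated or down-regulated at an adjusted p-value under 0.01 (edgeR quasi-likelihood test, Benjamini-Hochberg over all tested genes) and more than a 2-fold change. Of the 10 genes, 1 was called in sgXIST7, where 7.76% of all tested genes were called, and 2 were called in sgXIST9, where 7.7% were called. At an adjusted p under 0.05 and any fold, 2 and 3 of the 10 were past the threshold, against 21.6% of all tested genes in both clones. ACTA2, the smooth muscle alpha actin, was up-regulated in both KD clones. ACTG2, the smooth muscle gamma actin, was down-regulated in sgXIST9. Both comparisons share the 3 sgCtl libraries.

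ACTA2 had 51.8, 35.4 and 22 CPM in the sgCtl libraries, 354, 259 and 291 CPM in sgXIST7 and 174, 196 and 152 CPM in sgXIST9. Every KD library lay above every sgCtl library, and every sgXIST7 library lay above every sgXIST9 library. The log2 fold change over sgCtl was 3.05 ± 0.35 in sgXIST7 (SE, adjusted p = 5e-06, 8.29-fold) and 2.26 ± 0.34 in sgXIST9 (adjusted p = 9e-05, 4.79-fold). The direct test of sgXIST7 against sgXIST9 did not pass (log2 difference 0.79, 95% interval 0.11 to 1.47, adjusted p = 0.15). ACTA2 lies on chromosome 10 from 88935074 to 88991397 (hg38, minus strand), and 28.5% of its exon bases overlap exons of ACTA2-AS1 on the opposite strand. The strand setting of the counting was not given in the sources used here. ACTA2-AS1 had far fewer counts, with group means of 0.321, 0.711 and 0.468 CPM in sgCtl, sgXIST7 and sgXIST9 in normoxia. Each window of 50 bases within a single ACTA2 or ACTG2 exon occurred once in the main chromosomes of hg38, so that the 2 actins share no such stretch.

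The genes whose levels were most like those of ACTA2 over the 18 libraries were GJA1 (Pearson r of log2 CPM 0.985), TIMP2 (0.97) and CAPG (0.969), which encode the gap junction protein connexin 43, a metalloproteinase inhibitor and an actin-capping protein. These libraries fall into 6 groups, and r is given as a measure of likeness only. Markers of fibroblasts and pericytes, cells that also express ACTA2, went in both directions. COL1A2 averaged 0.275 CPM in sgCtl, 96.7 in sgXIST7 and 49.1 in sgXIST9 in normoxia. NOTCH3 averaged 8.61, 71.9 and 21.6 CPM, and CSPG4 73.5, 165 and 111 CPM. POSTN, by contrast, averaged 2.04, 0.464 and 0.366 CPM and DCN 0.406, 0.0329 and 0.0343 CPM. COL3A1 averaged 950, 1020 and 601 CPM, and RGS5 7.7, 9.07 and 7.78 CPM. The epithelial keratin KRT8 averaged 9.13, 34.7 and 33.8 CPM. The 6 pericyte markers summed to 85.6 to 96.1 CPM in the sgCtl libraries, 178 to 356 in sgXIST7 and 133 to 151 in sgXIST9, with KCNJ8 at 0 in all 3 groups, MCAM at 0 in sgCtl and ABCC9 at 0 in sgXIST7. The 10 fibroblast markers summed to 944 to 987, 1130 to 1200 and 654 to 716 CPM, with PDGFRB at 0 in sgCtl and sgXIST7, FAP at 0 in sgCtl and sgXIST9 and PDGFRA at no more than 3 counts in these groups. In these bulk libraries, a change in the share of cells that express a gene and a change per cell cannot be told apart. The part of these markers in the ACTA2 result was not tested.

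ACTG2 (chromosome 2, 73893008 to 73919864, plus strand) had low counts, with 42, 29 and 22 in the sgCtl libraries, 40, 18 and 29 in sgXIST7 and 8, 5 and 4 in sgXIST9. These counts correspond to 2.11 ± 0.786, 1.33 ± 0.369 and 0.285 ± 0.0641 CPM (SD). Every sgXIST9 library lay below every library of the other groups in normoxia, while sgXIST7 and sgCtl overlapped. The log2 fold change was -2.83 ± 0.54 in sgXIST9 (SE, adjusted p = 0.00095, edgeR) and -0.64 ± 0.46 in sgXIST7 (adjusted p = 0.36). The direct test of sgXIST7 against sgXIST9 gave 2.18 ± 0.55 with an adjusted p of 0.016, which missed the threshold of 0.01, while DESeq2 gave an adjusted p of 0.004. The genes most like ACTG2 over the 18 libraries were LEMD3 (r = 0.899), HS6ST2 (0.895) and LYPD6 (0.891). The ACTG2 window held 2 exact CArG boxes and the ACTA2 window 2 stretches with 1 difference. The part of these boxes in the levels of either gene was not tested.

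**Figure D2:**
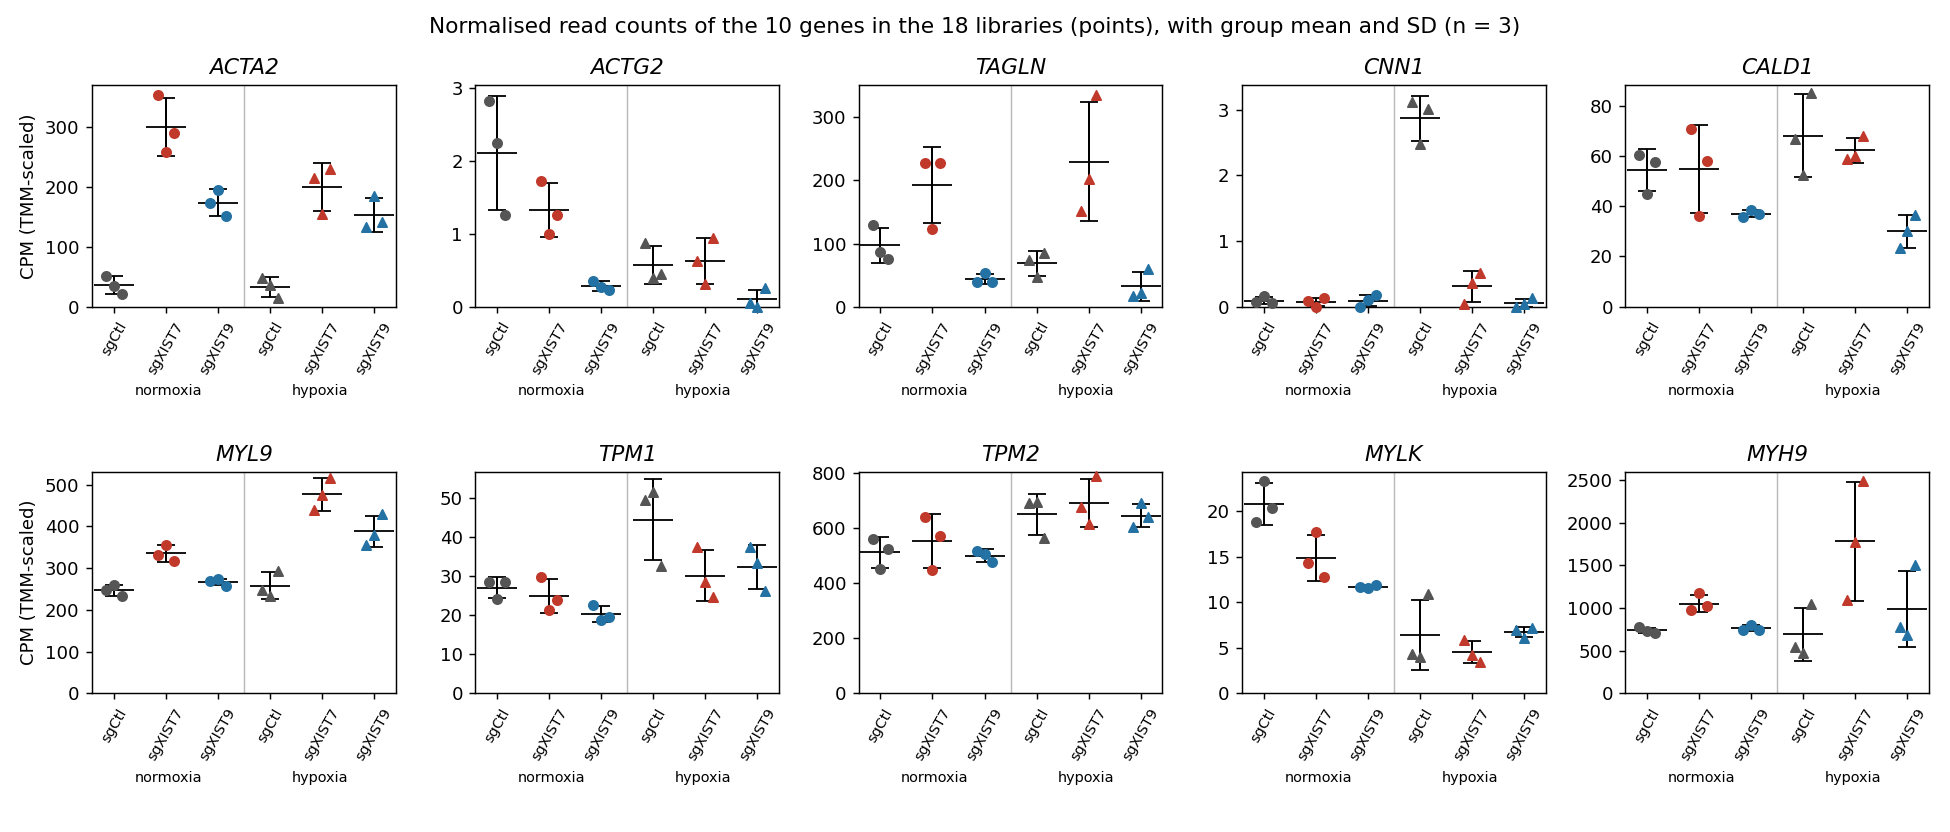
CPM of each of the 10 genes (1 panel each, vertical axis in CPM with its own scale) in the 18 libraries, with sgCtl, sgXIST7 and sgXIST9 in normoxia (circles) and hypoxia (triangles), and bars for the group mean and SD (n = 3). ACTA2 was at 22 to 51.8 CPM in sgCtl and 152 to 354 CPM in the KD libraries in normoxia, and CNN1 stood out in the 3 sgCtl libraries in hypoxia at 2.48 to 3.12 CPM.

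TAGLN, the actin-binding protein transgelin, differed between the KD clones. It had 129, 86.7 and 76.1 CPM in the sgCtl libraries, 228, 123 and 228 CPM in sgXIST7 and 38.8, 53.8 and 38.9 CPM in sgXIST9. The sgXIST9 libraries lay below all others, and sgXIST7 overlapped sgCtl through the library with 123 CPM. Neither clone passed the test against sgCtl (log2 fold change 0.99 ± 0.41 in sgXIST7, adjusted p = 0.097, and -1.15 ± 0.41 in sgXIST9, adjusted p = 0.057). The direct test of sgXIST7 against sgXIST9 gave 2.14 ± 0.42 (SE, adjusted p = 0.0027, 4.40-fold, edgeR). TAGLN was the only 1 of the 10 genes called in this comparison, where 3.4% of all tested genes were called. At an adjusted p under 0.05 and any fold there were 2 of 10, TAGLN and ACTG2, against 8.88%. Without a filter on low counts the adjusted p was 0.021, and without sgXIST7 replicate 1 or 3 or sgXIST9 replicate 1 or 3 it was 0.012 to 0.021. TAGLN (chromosome 11, 117199294 to 117207465, plus strand) shares 52.4% of its exon bases with exons of PCSK7 on the opposite strand, and 67.7% of its 50-base exon windows occurred once in the main chromosomes. PCSK7 did not move with TAGLN (log2 difference between the KD clones -0.02 ± 0.10, adjusted p = 0.93, at group means of 39.5 and 40.2 CPM).

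The other 7 genes did not pass in normoxia. MYL9, the regulatory light chain (chromosome 20, 36541519 to 36551446, plus strand), had 234 to 260 CPM in sgCtl, 317 to 356 in sgXIST7 and 258 to 273 in sgXIST9. All sgXIST7 libraries were above all sgCtl libraries at a log2 fold change of 0.44 ± 0.11 (SE, adjusted p = 0.0057), below the 2-fold limit. MYH9 (chromosome 22, 36281277 to 36388067, minus strand) had 713 to 774 CPM in sgCtl, 980 to 1170 in sgXIST7 and 745 to 803 in sgXIST9, at a log2 fold change of 0.51 ± 0.31 in sgXIST7 (adjusted p = 0.27). MYLK (chromosome 3, 123610049 to 123884332, minus strand) had 18.8 to 23.3 CPM in sgCtl, 12.8 to 17.7 in sgXIST7 and 11.6 to 11.9 in sgXIST9. The KD libraries of the kinase gene all lay below the sgCtl libraries, with log2 fold changes of -0.48 ± 0.27 (adjusted p = 0.24) and -0.82 ± 0.28 (adjusted p = 0.041). CALD1 (chromosome 7, 134779634 to 134970729, plus strand) averaged 54.3 ± 8.22 CPM in sgCtl, 54.8 ± 17.5 in sgXIST7 and 37 ± 1.42 in sgXIST9 (SD). TPM1 (chromosome 15, 63042747 to 63071914, plus strand) averaged 27 ± 2.61, 24.9 ± 4.3 and 20.3 ± 2.03 CPM. TPM2 (chromosome 9, 35681993 to 35690056, minus strand) averaged 513 ± 56.3, 554 ± 98.1 and 501 ± 22.2 CPM. For TPM2 the 95% intervals of the log2 fold changes were -0.16 to 0.38 in sgXIST7 and -0.31 to 0.23 in sgXIST9. CNN1 (chromosome 19, 11538851 to 11550323, plus strand) had at most 3 counts in any normoxia library, so that no difference was detectable at this depth. CALD1, TPM1, TPM2 and MYLK each make several isoforms in muscle and nonmuscle cells, which gene counts do not separate. Over the 10 genes, the median log2 fold change was 0.06 in sgXIST7 and -0.22 in sgXIST9, against -0.01 and -0.02 over all tested genes.

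The second comparison was between the same clones after 24 h of hypoxia. Of the 10 genes, 4 were called in sgXIST7, where 14% of all tested genes were called, and 3 in sgXIST9, where 9.53% were called. At an adjusted p under 0.05 and any fold there were 6 and 5 of 10, against 42.3% and 29.6%. Each of these counts includes CNN1, which passed the filter on low counts only through sgCtl in hypoxia, so that its call is a description. ACTA2 was up-regulated and CNN1, the smooth muscle calponin, had lower counts in both KD clones. TAGLN and MYH9 were up-regulated in sgXIST7, and CALD1 was down-regulated in sgXIST9.

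ACTA2 had 47.4, 35.8 and 14.4 CPM in the sgCtl libraries in hypoxia, 215, 155 and 231 CPM in sgXIST7 and 133, 185 and 142 CPM in sgXIST9. All KD libraries were again above all sgCtl libraries, and the 2 KD clones overlapped. The log2 fold changes were 2.61 ± 0.34 in sgXIST7 (SE, adjusted p = 1.7e-05, 6.11-fold) and 2.22 ± 0.34 in sgXIST9 (adjusted p = 9.2e-05, 4.67-fold). In a fit restricted to sgXIST9 and sgCtl in hypoxia, the sgXIST9 value was 2.23 with an adjusted p of 0.011. Alternative fits, including the fit without replicate 3 of all hypoxia groups, gave 2.16 to 2.69 in sgXIST7 and 1.93 to 2.3 in sgXIST9. Leaving out single libraries gave 2.27 to 2.97 in sgXIST7 and 1.88 to 2.58 in sgXIST9. ACTA2-AS1 averaged 2.25 ± 0.263 CPM in sgCtl, 7.33 ± 1.19 in sgXIST7 and 4.64 ± 0.84 in sgXIST9 in hypoxia (SD), and was called up-regulated in both KD clones (log2 fold changes 1.69 ± 0.23 and 1.03 ± 0.23, adjusted p = 2.5e-05 and 0.0027, edgeR). COL1A2 averaged 0.213, 189 and 45.4 CPM, NOTCH3 9.12, 44.6 and 30.1 CPM and CSPG4 58.7, 190 and 124 CPM in these groups. DCN averaged 1.56, 0.0447 and 0.0993 CPM, POSTN 1.25, 0.397 and 0.41 CPM and COL3A1 851, 895 and 523 CPM. KRT8 averaged 4.4, 25.8 and 19.4 CPM. The pericyte markers summed to 71.7 to 79.1, 219 to 259 and 150 to 180 CPM in these libraries, with KCNJ8 at 0 in sgCtl and sgXIST9 and MCAM at 0 in sgXIST7. The fibroblast markers summed to 749 to 1030, 886 to 1300 and 444 to 706 CPM with none at 0, and their part in the results was not tested.

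CNN1 had 50, 50 and 34 counts in the sgCtl libraries in hypoxia, 1, 8 and 6 in sgXIST7 and 0, 1 and 2 in sgXIST9. The sgCtl libraries stood above all other libraries of the series, and CNN1 passed the filter on low counts only through this group, so that it had to differ. Both comparisons also share these 3 sgCtl libraries, and the calls of CNN1 are a description. Its level over the summed counts was 10.3 times that of sgXIST7 (95% counting interval 6.01 to 18.9) and 56.3 times that of sgXIST9 (18.9 to 277). These intervals cover counting error only. The fitted log2 fold changes were -3.30 ± 0.60 in sgXIST7 (SE) and -5.64 ± 0.75 in sgXIST9, and depend on the prior count where counts are this low. The sgXIST9 value was -6.61 without sgXIST9 replicate 3 and -5.05 without sgXIST9 replicate 1. Other smooth muscle markers were also seen in these sgCtl libraries at trace level, with up to 4 counts of DES, 4 of MYOCD and 2 of MYH11. The rest of the smooth muscle list went both ways against sgXIST7 and sgXIST9 in hypoxia. SMTN averaged 38.2 CPM in sgCtl against 26.9 and 26.8 with overlapping libraries, and ACTG2 0.571 against 0.629 and 0.0993. LMOD1 averaged 2.29 CPM against 2.56 and 2.84, and SYNPO2 0.415 against 0.411 and 0.768. Markers of other cell types also went both ways. Some had higher group means in sgCtl than in sgXIST7 and sgXIST9 in hypoxia, although the ITGAM and ACTA1 libraries overlapped. The fibroblast marker DCN averaged 1.56 CPM against 0.0447 and 0.0993, and the leukocyte marker ITGAM 2.17 CPM against 0.623 and 0.944. The striated muscle actin ACTA1 averaged 0.65 CPM against 0.123 and 0.391. The endothelial markers PECAM1 and ERG had up to 8 counts, with 0 in the lowest sgCtl library. Others of the same lists had lower means in sgCtl, with overlapping libraries for CD68 and VWF. COL1A2 averaged 0.213 CPM against 189 and 45.4, and CD68 16.1 against 20.1 and 18.2. TNNT3 averaged 0.0461 CPM against 2.13 and 0.528, and VWF 0.103 against 0.182 and 0.406. The part of these markers in the CNN1 result was not tested.

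TAGLN had 73.3, 47 and 85.8 CPM in sgCtl in hypoxia, 151, 202 and 335 CPM in sgXIST7 and 16.3, 21.3 and 59.1 CPM in sgXIST9. The sgXIST7 libraries lay above all others, while sgXIST9 overlapped sgCtl through replicate 3. TAGLN was up-regulated in sgXIST7 at a log2 fold change of 1.74 ± 0.41 (SE, adjusted p = 0.0032, edgeR), and at -1.10 ± 0.41 in sgXIST9 it did not pass (adjusted p = 0.055). The sgXIST7 call was lost without sgCtl replicate 1 (adjusted p = 0.012), without sgCtl replicate 2 (0.023), without sgXIST7 replicate 3 (0.021) and without the filter on low counts (0.016). Without sgXIST9 replicate 3 in hypoxia, TAGLN was called down-regulated in sgXIST9 (log2 fold change -1.87, adjusted p = 0.0018). PCSK7 averaged 29.9, 21.1 and 27 CPM in sgCtl, sgXIST7 and sgXIST9, lower in sgXIST7 where TAGLN was higher (log2 fold change -0.51 ± 0.10, adjusted p = 0.00099).

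MYH9 had 546, 478 and 1050 CPM in sgCtl in hypoxia, 1090, 1770 and 2490 CPM in sgXIST7 and 772, 689 and 1500 CPM in sgXIST9. Replicate 3 was the highest library in each of these groups. The sgXIST7 libraries were all above the sgCtl libraries, by a narrow gap between 1050 and 1090 CPM. The log2 fold change was 1.37 ± 0.31 in sgXIST7 (SE, adjusted p = 0.0023, edgeR) and 0.51 ± 0.31 in sgXIST9 (adjusted p = 0.23). The call was lost without sgCtl replicate 1 (adjusted p = 0.016), sgCtl replicate 2 (0.017) or sgXIST7 replicate 3 (0.019), with only the groups compared (0.029) and without the filter on low counts (0.01). It held without replicate 3 of all hypoxia groups.

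CALD1 had 66.5, 52.4 and 85.1 CPM in sgCtl in hypoxia, 58.8, 59.9 and 67.8 CPM in sgXIST7 and 23.3, 30 and 36.4 CPM in sgXIST9. The sgXIST9 libraries lay below all others. Caldesmon was down-regulated in sgXIST9 at a log2 fold change of -1.18 ± 0.22 (SE, adjusted p = 0.00057, 2.27-fold lower). This value was close to the 2-fold limit, and without sgCtl replicate 3 it was -1 and not called. When the fit held no other group, the adjusted p was 0.016. Between the KD clones in hypoxia, TAGLN (log2 difference 2.84 ± 0.43, adjusted p = 0.00025) and CALD1 (1.06 ± 0.22, adjusted p = 0.0031) were higher in sgXIST7 than in sgXIST9, 2 of the 10 genes against 4.46% of all tested genes (3 against 18% at an adjusted p under 0.05 and any fold). The TAGLN difference was 3.61 without sgXIST9 replicate 3, 2.47 without sgXIST7 replicate 3 and 3.24 without replicate 3 of all hypoxia groups. In a fit restricted to both KD clones in hypoxia, the adjusted p-values were 0.016 and 0.011. The CALD1 call was also lost without sgXIST7 replicate 2 or 3 or sgXIST9 replicate 1 or 2 (adjusted p = 0.011 to 0.024), whereas without sgXIST9 replicate 3 the calls numbered 4, with ACTG2 and MYH9 added.

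MYL9 was higher in both KD clones in hypoxia by less than 2-fold. It had 233 to 293 CPM in sgCtl, 438 to 516 in sgXIST7 and 356 to 429 in sgXIST9. No library of a KD clone overlapped sgCtl, and the log2 fold changes were 0.89 ± 0.11 (SE, adjusted p = 6.3e-06) and 0.59 ± 0.11 (adjusted p = 0.00042). ACTG2 had 14, 8 and 5 counts in sgCtl, 13, 7 and 11 in sgXIST7 and 1, 0 and 4 in sgXIST9. In sgXIST9 its log2 fold change of -2.65 ± 0.74 had an adjusted p of 0.012, and it was called without sgXIST9 replicate 3 (-4.30, adjusted p = 0.0021). With the replicate number as a block, ACTG2 was also called (adjusted p = 0.0088), as it was by DESeq2 (0.0048) and without the filter on low counts (0.0094). The block was shared by all 18 libraries. Same-numbered libraries deviated together for sgXIST9 and sgCtl in hypoxia, but not for the same clones in normoxia (r 0.03, 0.04 and 0.08). Over the alternative fits, the adjusted p of ACTG2 was 0.0013 to 0.069. MYLK, TPM1 and TPM2 were not called in either clone. TPM1 averaged 44.4 ± 10.4 CPM in sgCtl, 30.1 ± 6.58 in sgXIST7 and 32.2 ± 5.61 in sgXIST9 (SD). TPM2 averaged 651 ± 74.8, 693 ± 88.1 and 646 ± 42.8 CPM.

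**Figure D3:**
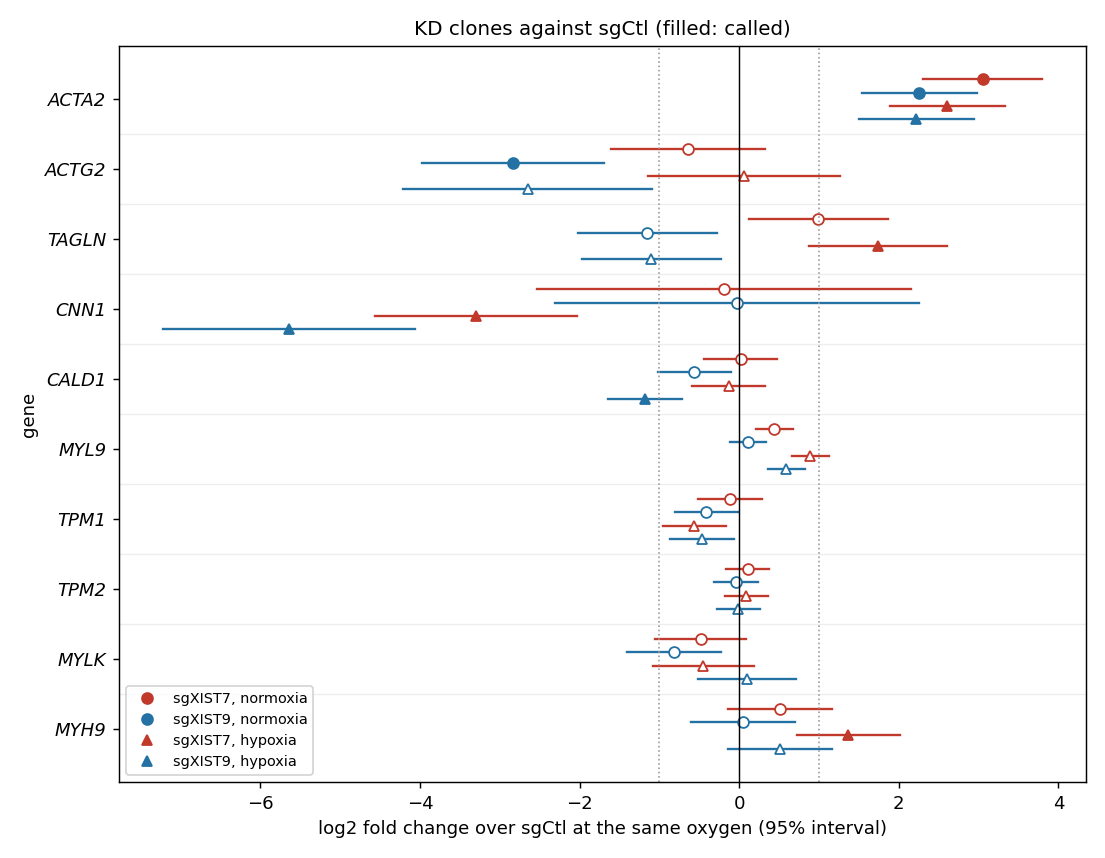
Log2 fold change over sgCtl at the same oxygen (horizontal axis, points, with 95% intervals as lines) of the 10 genes in sgXIST7 (red) and sgXIST9 (blue), in normoxia (circles) and hypoxia (triangles). Filled points were called, and dotted lines mark 2-fold. ACTA2 was called in all 4 comparisons at 2.22 to 3.05, and TAGLN pointed up in sgXIST7 (0.99 and 1.74) and down in sgXIST9 (-1.15 and -1.10).

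The third comparison was the response to hypoxia within each clone. Hypoxia changed a large share of all tested genes, 19.7% in sgCtl, 27.3% in sgXIST7 and 23.3% in sgXIST9, and 3, 1 and 0 of the 10 genes. At an adjusted p under 0.05 and any fold the shares were 51.4%, 59% and 55.3%, and 5, 4 and 4 of the 10 genes. In sgCtl, ACTG2 and MYLK fell, and CNN1 was higher but was tested only because of its counts in these libraries. In sgXIST7, MYLK fell. In sgXIST9, no gene was called by edgeR or by DESeq2, and 5 of the 10 (ACTG2, MYL9, MYLK, TPM1 and TPM2) had an unadjusted p under 0.05. The share of all tested genes at this unadjusted limit was not computed, and 55.3% passed 0.05 even after adjustment.

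MYLK had 18.8, 23.3 and 20.3 CPM in sgCtl in normoxia and 4.31, 4.02 and 10.9 CPM in hypoxia. In sgXIST7 it had 14.3, 17.7 and 12.8 CPM in normoxia and 5.87, 4.26 and 3.45 CPM in hypoxia. In sgXIST9 it had 11.7, 11.6 and 11.9 CPM in normoxia and 6.92, 6.08 and 7.13 CPM in hypoxia. In each clone the hypoxia libraries of the kinase gene lay below the normoxia libraries. The log2 fold changes were -1.73 ± 0.29 in sgCtl (SE, adjusted p = 0.00011), -1.70 ± 0.29 in sgXIST7 (adjusted p = 8.8e-05) and -0.81 ± 0.28 in sgXIST9 (adjusted p = 0.022), all by edgeR. The sgCtl value was -2.32 without sgCtl replicate 3 in hypoxia. The response of sgXIST9 differed from that of sgCtl by 0.92 ± 0.40 (adjusted p = 0.19), and without sgCtl replicate 3 in hypoxia, the library with 10.9 CPM, by 1.51 (adjusted p = 0.0012). MYLK-AS1, which overlaps 1.29% of the MYLK exon bases on the opposite strand, had group means of 1.24 to 2.84 CPM. In hypoxia it was called lower in sgXIST7, as MYLK was (log2 fold change -1.18 ± 0.28, adjusted p = 0.0019, edgeR). It was not called in sgCtl (-0.27 ± 0.29, adjusted p = 0.45) or sgXIST9 (-0.45 ± 0.27, adjusted p = 0.18). The exact CArG box in the MYLK window stands before the start of the short transcript inside the gene. Gene counts do not tell this transcript from the kinase.

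CNN1 had 1, 2 and 1 counts in the sgCtl libraries in normoxia, against 50, 50 and 34 in hypoxia. The ratio over the summed counts was 32 (95% counting interval 12.2 to 119), with a fitted log2 fold change of 4.91 ± 0.73 (SE). Since CNN1 entered the test only through these hypoxia libraries, its call here is a description. In sgXIST7 the counts were 2, 0 and 3 in normoxia and 1, 8 and 6 in hypoxia, a ratio of 3.52 (1.22 to 12.4), and the test did not pass (adjusted p = 0.087). In sgXIST9 no library had more than 3 counts in either condition. The response to hypoxia differed from that of sgCtl by -3.11 ± 1.35 in sgXIST7 (adjusted p = 0.15) and by -5.61 ± 1.52 in sgXIST9 (adjusted p = 0.041), and neither passed the threshold of 0.01.

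ACTG2 fell in sgCtl from 2.11 ± 0.786 to 0.571 ± 0.264 CPM (SD), a log2 fold change of -1.86 ± 0.51 (SE, adjusted p = 0.0061, edgeR). The hypoxia libraries lay below the normoxia libraries. The call was lost without sgCtl replicate 2 or 3 in hypoxia or sgCtl replicate 1 or 2 in normoxia (adjusted p = 0.016 to 0.034), and with only the groups compared (0.013). It had log2 fold changes of -1.16 ± 0.51 in sgXIST7 (adjusted p = 0.058) and -1.68 ± 0.79 in sgXIST9 (adjusted p = 0.083), the latter -3.32 with an adjusted p of 0.0095 without sgXIST9 replicate 3 in hypoxia.

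The other genes had fold changes under the 2-fold limit or were not called. TPM1 was higher in hypoxia at log2 fold changes of 0.72 ± 0.19 in sgCtl (adjusted p = 0.0049) and 0.67 ± 0.19 in sgXIST9 (adjusted p = 0.0073), and at 0.27 ± 0.19 in sgXIST7 (adjusted p = 0.23). TPM2 was at 0.34, 0.32 and 0.37 in sgCtl, sgXIST7 and sgXIST9 (adjusted p = 0.042, 0.048 and 0.029). MYL9 was at 0.51 ± 0.11 in sgXIST7 and 0.54 ± 0.11 in sgXIST9 (adjusted p = 0.00054 and 0.00036) and at 0.06 ± 0.11 in sgCtl (adjusted p = 0.66). MYH9 was at 0.76 ± 0.31 in sgXIST7 (adjusted p = 0.044), -0.10 ± 0.31 in sgCtl (adjusted p = 0.81) and 0.37 ± 0.31 in sgXIST9 (adjusted p = 0.33). Without replicate 3 of the hypoxia groups the sgXIST9 value was -0.06. The difference of the MYL9 response from sgCtl was 0.45 ± 0.15 in sgXIST7 and 0.48 ± 0.15 in sgXIST9 (adjusted p = 0.067 and 0.07). ACTA2, TAGLN and CALD1 had adjusted p-values of 0.12 to 0.73 in the 3 clones. ACTA2 had log2 fold changes of -0.15 in sgCtl, -0.59 in sgXIST7 and -0.19 in sgXIST9, whereas its antisense neighbour ACTA2-AS1 rose at 2.83 ± 0.30, 3.36 ± 0.25 and 3.30 ± 0.27 (adjusted p = 1.1e-06, 1.1e-08 and 3.6e-08). No gene of the 10 was called for a different response to hypoxia by edgeR or DESeq2, where 1.52% (sgXIST7) and 1.01% (sgXIST9) of all tested genes were called. At an adjusted p under 0.05 and any fold there were 0 and 1 of 10 (CNN1, tested only through sgCtl in hypoxia), against 9.39% and 5.27%. At an unadjusted p under 0.05 there were 2 in sgXIST7 (CNN1 and MYL9) and 3 in sgXIST9 (CNN1, MYL9 and MYLK), a limit at which the share of all tested genes was not computed.

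**Figure D4:**
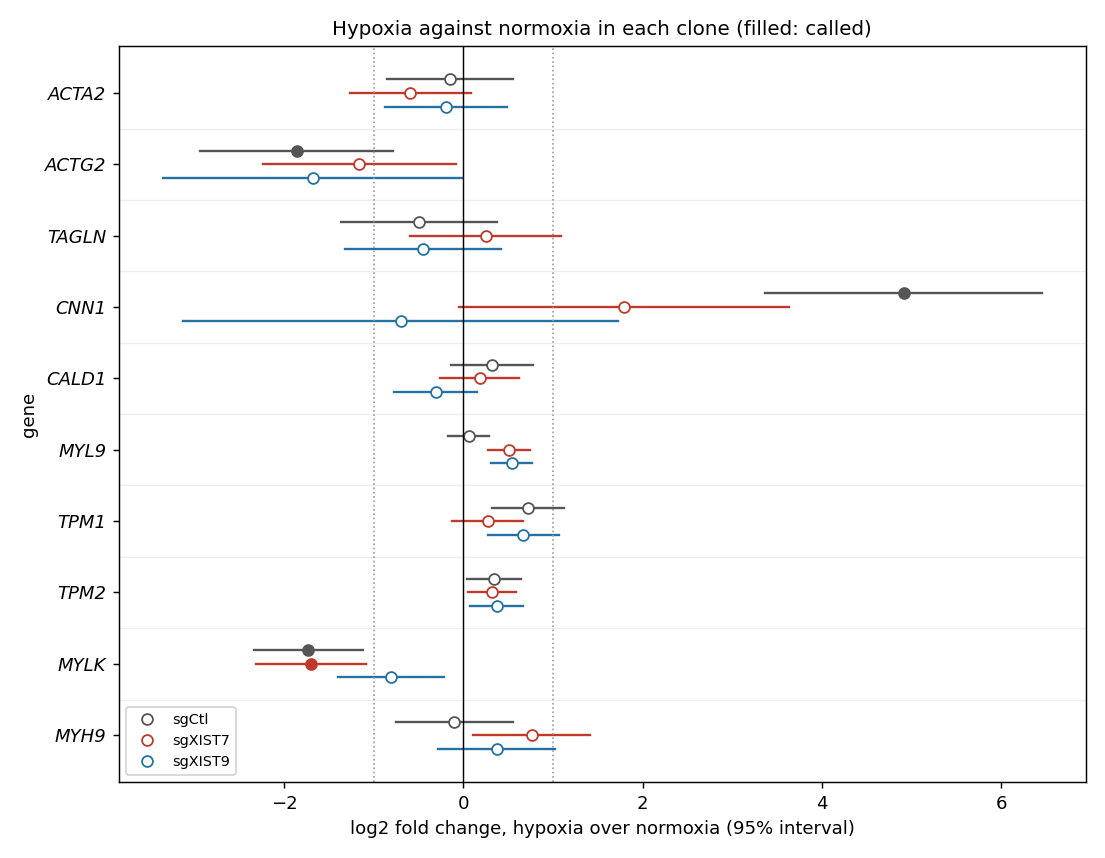
Log2 fold change of hypoxia over normoxia (horizontal axis, points, with 95% intervals as lines) of the 10 genes in sgCtl (grey), sgXIST7 (red) and sgXIST9 (blue). Filled points were called, and dotted lines mark 2-fold. MYLK lay below 0 in each clone (-1.73, -1.70 and -0.81), and CNN1 was at 4.91 in sgCtl, 1.79 in sgXIST7 and -0.70 in sgXIST9.

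Related genes were described by 3 further lists. The first list held 13 relatives of the 10 genes that most cells use (other actins, tropomyosins, calponins, transgelins and myosin chains). In normoxia 1 of 13 was called in sgXIST7 and 0 in sgXIST9, where 7.76% and 7.7% of all tested genes were called. The median log2 fold changes of the relatives were 0.06 in sgXIST7 and -0.05 in sgXIST9. In hypoxia 2 of 13 rose in sgXIST7 and 1 in sgXIST9, and 0 fell, where 14% and 9.53% of all tested genes were called. The gene called in normoxia was TAGLN2, which averaged 87.9 ± 10.5 CPM in sgCtl and 215 ± 33.6 in sgXIST7 (SD, log2 fold change 1.29 ± 0.15, adjusted p = 5e-06). It averaged 139 ± 0.329 CPM in sgXIST9 (log2 fold change 0.66 ± 0.15, adjusted p = 0.0031, under the 2-fold limit). In hypoxia it was at 122 ± 17.9 CPM in sgCtl, 106 ± 15.6 in sgXIST7 and 64.5 ± 8.18 in sgXIST9, and its response differed from that of sgCtl in both KD clones (log2 difference -1.49 ± 0.21, adjusted p = 0.00062, and -1.58 ± 0.21, adjusted p = 0.00044, edgeR).

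Of 14 further smooth muscle genes, 8 were tested, and the others, MYH11 and DES among them, had too few counts. In normoxia CSRP1, a LIM protein of smooth muscle, rose in both KD clones from 0.57 ± 0.262 CPM in sgCtl to 2.23 ± 1.36 in sgXIST7 and 3.32 ± 0.268 in sgXIST9 (SD, log2 fold changes 1.96 ± 0.46 and 2.55 ± 0.46, adjusted p = 0.0048 and 0.00051). SMTN, the actin-binding protein smoothelin, fell in sgXIST7 from 42.5 ± 4.7 to 18.2 ± 3.08 CPM (log2 fold change -1.23 ± 0.28, adjusted p = 0.0038) and averaged 29.4 ± 3.94 CPM in sgXIST9. The list thus gave 1 gene up and 1 down in sgXIST7 and 1 up in sgXIST9, at median log2 fold changes of 0.39 and -0.04, where 7.76% and 7.7% of all tested genes were called. In hypoxia neither gene passed, with CSRP1 at 0.29 (adjusted p = 0.67) in sgXIST7 and 1.31 (adjusted p = 0.045) in sgXIST9, and SMTN at -0.51 (adjusted p = 0.15) and -0.50 (adjusted p = 0.18).

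Of 18 genes for SRF, its coactivators and its known targets, 16 were tested. In normoxia 1 rose in sgXIST7 and 2 fell in sgXIST9, where 7.76% and 7.7% of all tested genes were called in either direction. CCN2, a secreted matrix protein, rose in sgXIST7 from 0.516 ± 0.0892 to 1.83 ± 0.332 CPM (SD, log2 fold change 1.83, adjusted p = 0.0093). CCN1, its relative, averaged 29.5 ± 6.87 CPM in sgCtl, 14.2 ± 3.13 in sgXIST7 and 6.75 ± 0.154 in sgXIST9, and fell in sgXIST9 (log2 fold change -2.12 ± 0.33, adjusted p = 0.00014). FHL1, a LIM protein of muscle, fell in sgXIST9 from 14.9 ± 0.58 to 4.53 ± 0.356 CPM (log2 fold change -1.71 ± 0.22, adjusted p = 1.8e-05). SRF itself averaged 48.5 ± 0.825, 41.3 ± 2.42 and 43.4 ± 4.09 CPM in sgCtl, sgXIST7 and sgXIST9. Of the coactivator genes, MRTFA averaged 13.4 ± 1.34, 23.5 ± 5.38 and 20.9 ± 1.99 CPM and MRTFB 50.4 ± 19.7, 53.4 ± 21.2 and 35.9 ± 2.41 CPM. MRTFA had a log2 fold change of 0.81 ± 0.17 in sgXIST7 (SE, adjusted p = 0.002, edgeR), under the 2-fold limit. The list's median log2 fold change was 0.07 in sgXIST7 and -0.05 in sgXIST9. Against sgCtl in hypoxia, 3 rose and 1 fell in sgXIST7, and 1 rose and 1 fell in sgXIST9, against 14% and 9.53% of all tested genes. In hypoxia against normoxia, 4, 4 and 3 of the 16 rose and 0 fell in sgCtl, sgXIST7 and sgXIST9, where 19.7%, 27.3% and 23.3% of all tested genes were called in either direction.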

How the data were processed

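Stranded total RNA libraries (TruSeq) from OVCAR3-KRAB cells were sequenced, 18 in all and 3 in each of 6 groups. The authors trimmed reads with Trimmomatic, checked them with FastQC, aligned them to hg38 with HISAT2 and deposited raw counts per gene made with featureCounts, per the labels and the study's methods. Versions, annotation and strand setting of the counting are not given in the sources used here. A record broken over 2 lines, with 0 counts, was left out. Library totals of 11794375 to 24906936 bound the precision: 3 counts equal 0.13 to 0.266 CPM.

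Counts were fitted with edgeR 4.0.16 (R 4.3.3, limma 3.58.1) by the robust quasi-likelihood test in 1 model of 6 groups with TMM scaling. Genes passed filterByExpr (minimum count 10, minimum total 15), and p-values were adjusted by Benjamini-Hochberg over 14938 genes. Calls needed an adjusted p under 0.01 and over 2-fold. The code was tested on simulated counts. DESeq2 1.42.0, other scalings, filters and thresholds, left-out libraries and a replicate block were alternatives. The members and lists (relatives, smooth muscle genes, SRF targets, cell type markers) were chosen with earlier results of these data known. A further list is not reported here. All 10 members were named. From the other lists, up to 5 genes called against sgCtl in normoxia were named, with the 3 genes most like each member called there. SRF, MRTFA, MRTFB and cell type markers were named outside this rule. No 2 libraries were identical. Same-numbered libraries deviated together (each r over 0.1) for sgXIST7 against sgCtl in normoxia (0.15, 0.38 and 0.19) and sgXIST9 against sgCtl in hypoxia (0.2, 0.52 and 0.57).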

Additional observations from a re-analysis of the deposited data

Results flagged for a closer look

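Among the 10 genes and the related genes named in the text, the direct test between groups passed for the following results, which are given as values. Between the KD clones in normoxia (sgXIST7 over sgXIST9, log2 difference), TAGLN was at 2.14 ± 0.42 (SE, adjusted p = 0.0027, edgeR) and FHL1 at 1.07 ± 0.22 (adjusted p = 0.0038). Between the KD clones in hypoxia, TAGLN was at 2.84 ± 0.43 (adjusted p = 0.00025), CALD1 at 1.06 ± 0.22 (adjusted p = 0.0031) and CCN1 at 2.11 ± 0.34 (adjusted p = 0.00035). The settings that end the TAGLN and CALD1 calls are given beside those results, and the other genes were not refitted under the alternatives. TAGLN2 responded to hypoxia differently from sgCtl in sgXIST7 (-1.49 ± 0.21, adjusted p = 0.00062) and in sgXIST9 (-1.58 ± 0.21, adjusted p = 0.00044).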

How the results depend on the processing

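Of 17 calls, 9 were lost under no alternative that tested them, and 0 changed direction. The 9 include the calls of CNN1, which was tested only through sgCtl in hypoxia. These calls are a description, and the filter on mean CPM did not test them. Values that changed sign were all uncalled in both fits, and the cause was not tested. Counts of members called also moved, and not every small move is listed. DESeq2 gave 4 in sgXIST9 in hypoxia and 3 between the KD clones in hypoxia. A fit of only the groups compared gave 3 in sgXIST7 in hypoxia and 2 for hypoxia in sgCtl. Shares of all tested genes are given only for the main threshold and for an adjusted p under 0.05 at any fold. The larger moves were as follows. At an adjusted p under 0.05 there were 2 between the KD clones in normoxia and 1 for the response of sgXIST9 against sgCtl. At that level and any fold there were 2 in sgXIST7 in normoxia, 2 between the KD clones in normoxia, 5 in sgXIST9 in hypoxia, 5, 4 and 4 for hypoxia in sgCtl, sgXIST7 and sgXIST9, and 1 for the response of sgXIST9. Between the KD clones in normoxia there were 2 by DESeq2, 2 with only the groups compared and 0 without the filter on low counts. Without that filter there were 2 in sgXIST7 in hypoxia. With only the groups compared there were 1 in sgXIST9 in hypoxia and 0 between the KD clones in hypoxia. A mean CPM of at least 1, which leaves out ACTG2 and CNN1 by construction (8 members of 13217 genes tested), gave 1 in sgXIST9 in normoxia and 1 for hypoxia in sgCtl. Without replicate 3 of all hypoxia groups there were 5 in sgXIST9, 1 (ACTG2) for hypoxia in sgXIST9 and 1 (MYLK) for the response of sgXIST9. Leaving out 1 library at a time, the counts were 0 to 1 between the KD clones in normoxia, 2 to 4 in sgXIST7 and 2 to 5 in sgXIST9 in hypoxia, 1 to 4 between the KD clones in hypoxia, 2 to 3 for hypoxia in sgCtl, 0 to 1 for hypoxia in sgXIST9 and 0 to 1 for the response of sgXIST9. The replicate block gave 2 between the KD clones in normoxia (ACTG2 2.18, adjusted p = 0.0094), where the numbers share no more than a label (r 0.02, 0.05 and 0.03). The block took no call away, and beside this 1 added ACTG2 in sgXIST9 in hypoxia. CPM levels under other scalings moved by at most 3.92%.

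Signs changed in these uncalled log2 values. Without replicate 3 of the hypoxia groups, ACTA2 was 0.2 for hypoxia in sgCtl, ACTG2 was -1.6 for the response of sgXIST9, ACTG2 was -0.4 for sgXIST7 in hypoxia, CALD1 was 0 for sgXIST7 in hypoxia, MYH9 was -0.06 for hypoxia in sgXIST9, MYL9 was -0.04 for hypoxia in sgCtl, MYLK was 0.29 for sgXIST7 in hypoxia, TAGLN was -0.11 for hypoxia in sgXIST7, TAGLN was -0.52 for the response of sgXIST9, TPM2 was -0.06 for the response of sgXIST9, TPM2 was -0.1 for sgXIST7 in hypoxia and TPM2 was 0 for the KD clones in hypoxia. With upper-quartile scaling, ACTA2 was 0.01 for the response of sgXIST9, CALD1 was -0.01 for sgXIST7 in normoxia, TPM1 was 0 for the response of sgXIST9 and TPM2 was 0.01 for sgXIST9 in hypoxia. With the replicate block, TAGLN was -0.03 for the response of sgXIST9. Without the filter on low counts, TPM2 was 0 for the response of sgXIST7 and TPM2 was 0 for sgXIST9 in hypoxia. By DESeq2, TPM2 was -0.03 for the response of sgXIST9. With median-of-ratios scaling, TPM2 was -0.03 for the response of sgXIST9. Leaving out 1 library at a time gave these ranges. For hypoxia in sgCtl, ACTA2 had -0.51 to 0.2, MYH9 had -0.53 to 0.11 and MYL9 had -0.04 to 0.13. For the response of sgXIST9, ACTA2 had -0.38 to 0.33, ACTG2 had -1.47 to 0.8, TAGLN had -0.72 to 0.37, TPM1 had -0.23 to 0.08 and TPM2 had -0.07 to 0.11. For sgXIST7 in hypoxia, ACTG2 had -0.29 to 0.51, CALD1 had -0.29 to 0.06, MYLK had -0.71 to 0.14 and TPM2 had -0.01 to 0.17. For hypoxia in sgXIST7, CALD1 had -0.05 to 0.4 and TAGLN had -0.11 to 0.48. For the response of sgXIST7, CALD1 had -0.37 to 0.08, MYLK had -0.23 to 0.63 and TPM2 had -0.15 to 0.1. For sgXIST7 in normoxia, CALD1 had -0.21 to 0.24, CNN1 had -0.8 to 0.29 and TPM2 had -0.01 to 0.24. For hypoxia in sgXIST9, CNN1 had -1.66 to 0.04 and MYH9 had -0.06 to 0.57. For the KD clones in normoxia, CNN1 had -0.8 to 0.59. For sgXIST9 in normoxia, CNN1 had -0.78 to 0.61 and TPM2 had -0.12 to 0.04. For sgXIST9 in hypoxia, MYLK had -0.16 to 0.68 and TPM2 had -0.11 to 0.04. For the KD clones in hypoxia, TPM1 had -0.28 to 0.03.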
